A study of Homo sapiens with 2 samples.

Results

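The cells described here carried transcripts of both gene programmes that otherwise marked separate cells of the MDA-MB-231 line, the AGR2 programme and the serum amyloid A (SAA) programme. They were selected on measured values. A cell was kept when CEMIP, SAA1 and SAA2 together made up at least 2 per 10,000 of its unique molecular identifiers (UMIs, 1 per captured transcript) and AGR2 and SPANXB1 together also made up at least 2 per 10,000. Fewer than 2 MMP1 UMIs and less than 5 per 10,000 of IFIT1, IFIT2, IFIT3 and OASL were also required. The rule found 467 of 12487 cells in the D21 library and 232 of 7492 in the D0 library, 699 of 19979 cells in all. They are called both-programme cells below, where a cell means a barcode that met the rule. Cells that passed only 1 of the gates under the same MMP1 and IFIT limits are called AGR2-only (2037 cells at D21 and 2856 at D0) and SAA-only (4729 at D21 and 1289 at D0).

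MDA-MB-231 is a human triple-negative breast cancer line of mesenchymal appearance. The D21 library came from revertant cells selected for 21 days in RPMI with dialyzed serum that lacked methionine and held 100 µM homocysteine and 1.5 µM vitamin B12. The D0 library came from parental cells of the same line before that selection, in medium with 100 µM methionine. Each condition was 1 culture and 1 library, so no difference between D21 and D0 has a replicate check, and the intervals given are 95% intervals for counting error only.

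AGR2 is a protein disulfide isomerase of the endoplasmic reticulum, best known from mucus-secreting epithelium and from hormone receptor-positive breast tumours. SPANXB1 belongs to a family of X-linked genes expressed in testis and in some tumours. SAA1 and SAA2 encode acute-phase apolipoproteins that the liver secretes in inflammation, and CEMIP encodes a hyaluronan-binding protein needed for hyaluronan breakdown. On GRCh38 (GENCODE 29), AGR2 lies at chr7:16791811-16833433 on the minus strand and SPANXB1 at chrX:141002591-141003706 on the plus strand. CEMIP lies at chr15:80779343-80951776 on the plus strand, SAA1 at chr11:18266174-18269977 on the plus strand and SAA2 at chr11:18239223-18248643 on the minus strand.

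SAA1 and SAA2 were summed in the gate, and their sequences show how close these genes are. Over 369 coding bases of the transcripts SAA1-201 and SAA2-201, 358 were identical (97.0%). The last 150 coding bases, positions 220 to 369 with the stop codon, are shown 5′ to 3′ from GENCODE 29, with the 10 differing bases in capitals. Reads from the shared stretches cannot be assigned to 1 of the genes, so their separate counts are uncertain. How far this also affects the sum was not tested, and the untranslated ends were not compared.
SAA1: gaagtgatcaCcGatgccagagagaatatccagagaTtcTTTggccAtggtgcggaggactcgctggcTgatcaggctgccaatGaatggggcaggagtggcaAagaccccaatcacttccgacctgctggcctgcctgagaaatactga
SAA2: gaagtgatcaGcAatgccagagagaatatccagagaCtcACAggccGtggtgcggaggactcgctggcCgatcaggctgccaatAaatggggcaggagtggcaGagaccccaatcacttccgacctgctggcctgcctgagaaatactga

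The gate genes define the cells and are given as a description. In both-programme cells the SAA gate genes had a median of 6.05 per 10,000 at D21 and 4.71 at D0, against 8.41 (D21) and 6.67 (D0) in SAA-only cells. The AGR2 gate genes had a median of 4.21 (D21) and 4.20 (D0) in both-programme cells, against 6.37 (D21) and 8.15 (D0) in AGR2-only cells. SAA1 was seen in 98.3% of both-programme cells at D21 and 94.0% at D0, and in 16.9% and 10.7% of the AGR2-only cells, whose median of 9611 UMIs at D21 and 16788 at D0 was lower. SPANXB1 was seen in 88.9% (D21) and 93.5% (D0) of both-programme cells, against 8.99% (D21) and 16.5% (D0) of SAA-only cells, where the medians were 13011 and 23296 UMIs. All 5 gate genes were seen together in 86 both-programme cells at D21 (18.4%) and 97 at D0 (41.8%).

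Many of these cells lay near the gates. At D21, 153 of 467 were below 4 per 10,000 on the SAA gate and 223 on the AGR2 gate, and at D0 the numbers were 96 and 107 of 232. The cells nearest the SAA gate at D21 had 2.001, 2.006 and 2.022 per 10,000, and the nearest cells outside it 1.991, 1.986 and 1.978. On the AGR2 gate at D0, the nearest inside had 2.001, 2.034 and 2.040 per 10,000 and the nearest outside 1.998, 1.989 and 1.959. Counts were small: the SAA gate rested on a median of 11 UMIs at D21 and 22 at D0, and the AGR2 gate on 8 and 20. Free RNA held the same genes. Barcodes of 10 to 100 UMIs, taken as empty droplets, carried 7.20 per 10,000 of the SAA gate genes at D21 and 2.03 at D0, and 3.37 and 7.51 of the AGR2 gate genes. With these levels subtracted from every cell, 0.432% of cells at D21 and 0.240% at D0 passed both gates. This took the full empty-droplet level from each cell, as if all its UMIs were free RNA. It therefore acted as a higher gate and does not measure free RNA in the cells. The median AGR2-only cell had 0 UMIs of the SAA gate genes, and the median SAA-only cell 0 of the AGR2 gate genes, in both libraries. How much of either programme in these cells was free RNA was not tested.

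As a share of all cells, both-programme cells made up 3.74% at D21 (exact binomial interval 3.41 to 4.09) and 3.097% at D0 (2.72 to 3.51). The gates gave these shares by construction of the rule and are described with no test. Of the cells past the AGR2 gate, 18.7% at D21 and 7.51% at D0 also passed the SAA gate, against 60.1% (D21) and 32.4% (D0) of the cells that did not pass the AGR2 gate. The same order was seen in each of 4 equal groups of cells ordered by UMIs. In the group with the fewest UMIs the shares were 6.06% against 47.6% at D21 and 1.08% against 19.6% at D0, and in the group with the most they were 47.9% against 70.4% at D21 and 24.3% against 45.4% at D0.

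Both-programme cells held more UMIs than either single-programme class. At D21 the lowest had 5455 UMIs, the median 18957 and the highest 75238, and at D0 the lowest had 9737, the median 42292 and the highest 124949. The median was 1.97 times that of AGR2-only cells at D21 (1.84 to 2.09) and 2.52 times at D0 (2.24 to 2.84). Against SAA-only cells it was 1.46 times (1.36 to 1.55) at D21 and 1.82 times (1.61 to 2.05) at D0. The AGR2-only and SAA-only medians added up to 22622 UMIs at D21 and 40084 at D0, so that the both-programme median was 0.838 times this sum at D21 (0.781 to 0.888) and 1.06 times at D0 (0.937 to 1.19). A droplet that takes up 2 cells gives 1 barcode with the transcripts of both, and 1 cell with both programmes could not be told apart from such a pair by these counts. The classes overlapped in UMIs: 106 both-programme cells at D21 (22.7%) and 22 at D0 (9.48%) held no more UMIs than the median single-programme cell, which had 11876 UMIs at D21 and 18460 at D0. At the other end, 61 (13.1%) at D21 and 73 (31.5%) at D0 were above the 95th percentile of single-programme cells.

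**Figure D1:**
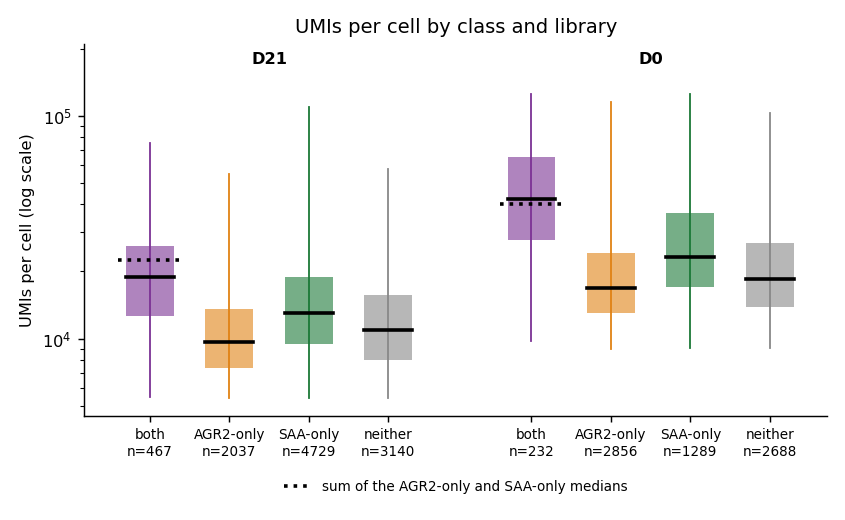
UMIs per cell on a log scale for cells with both programmes, AGR2-only, SAA-only and neither programme at D21 (left) and D0 (right), with boxes from the lower to the upper quartile, the median as a black line and lines from the lowest to the highest cell. The dotted line is the sum of the AGR2-only and SAA-only medians, 22622 UMIs at D21 and 40084 at D0, beside both-programme medians of 18957 and 42292.

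The number of genes seen per cell followed depth, and the classes were closer at equal depth. Both-programme cells had a median of 4880 genes at D21 and 7308 at D0, against 3182 (D21) and 4598 (D0) in AGR2-only and 4042 (D21) and 5618 (D0) in SAA-only cells. Cells with at least 9009 UMIs were thinned to that number, which at D21 kept 406 of 467 both-programme, 1133 of 2037 AGR2-only and 3713 of 4729 SAA-only cells. The median was then 3246 genes at D21, against 3136 in AGR2-only and 3282 in SAA-only cells. At D0 it was 3221, against 3207 in AGR2-only and 3367 in SAA-only cells. A doublet score (Scrublet) that sets each cell beside pairs of cells added together placed 22.7% of both-programme cells at D21 and 23.7% at D0 among the 6% of cells with the highest scores. The same top group held 3.19% (D21) and 5.99% (D0) of AGR2-only cells and 5.63% (D21) and 5.97% (D0) of SAA-only cells. The threshold that Scrublet set itself marked 1 cell at D21 and 0 at D0, so no cells were removed by it. The median mitochondrial share in both-programme cells was 6.09% at D21 and 5.45% at D0, within 1 percentage point of the single-programme classes.

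The share of both-programme cells was higher in groups of cells with more UMIs, in both libraries. In the 4 groups ordered from fewest to most UMIs, it was 1.67%, 1.76%, 3.62% and 7.91% at D21 and 0.534%, 0.694%, 2.46% and 8.70% at D0. Since D0 cells were deeper (median 18908 UMIs, against 12022 at D21), the libraries were also compared within shared ranges of UMIs. From 9009 to 15000 UMIs the share was 2.40% at D21 (1.98 to 2.89) and 0.520% at D0 (0.269 to 0.907). From 15000 to 25000 UMIs it was 5.51% (4.71 to 6.397) at D21 and 1.14% (0.782 to 1.61) at D0. From 25000 to 40000 UMIs it was 10.4% (8.69 to 12.2) at D21 and 4.81% (3.74 to 6.06) at D0. Among cells of 40000 UMIs or more the order turned, with 4.29% at D21 (9 of 210 cells, 1.98 to 7.98) and 12.2% at D0 (121 of 988 cells, 10.3 to 14.4). These intervals cover the counting of cells within 1 library each, so they do not test the conditions. A shared range also holds a different part of each library. Cells of 40000 UMIs or more were 210 of 12487 at D21 and 988 of 7492 at D0, and the part of this in the turn was not tested. The MMP1 limit is a count of UMIs and not a share, so it is stricter in deeper cells. Without it the share over all cells was 4.72% at D21 and 3.18% at D0, and its part in the turn was not tested. After thinning to 9009 UMIs, which left out 3552 shallower D21 cells, the share of both-programme cells was 5.69% (5.21 to 6.19) at D21 and 3.44% (3.04 to 3.88) at D0. The whole rule was applied anew to the thinned counts, which makes the MMP1 limit looser. Of the 8935 D21 cells, 508 passed after thinning and 406 with all their UMIs, and of the 7492 D0 cells, 258 and 232. The part of the looser limit in these shares was not tested. The single-programme shares also differed between the libraries, and their part in these differences was not tested: SAA-only cells were 37.9% at D21 and 17.2% at D0, and AGR2-only cells 16.3% at D21 and 38.1% at D0.

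**Figure D2:**
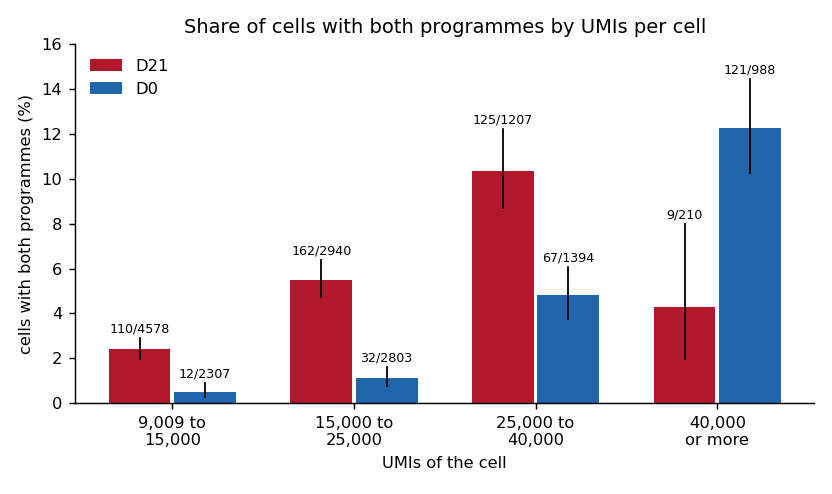
Share of cells with both programmes (percent, with exact binomial 95% intervals) among cells of 4 shared ranges of UMIs, D21 in red left of D0 in blue, with the cells counted above each bar. D21 was higher in the lower 3 ranges (10.4% against 4.81% from 25000 to 40000 UMIs) and lower among cells of 40000 UMIs or more (4.29% against 12.2%). The MMP1 limit of the rule, a count of UMIs, is stricter in deeper cells, and each range holds a different part of each library.

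The defining genes of the line were present. In both-programme cells the intermediate filament gene VIM had 2885 CPM (UMIs of the gene scaled to a total of 1000000 UMIs) at D21 and 4072 at D0, KRT18 had 1007 and 1037, CAV1 757 and 804, and EGFR 203 and 181. ESR1 and PGR, hormone receptors that triple-negative tumours lack, had 4 and 0 UMIs at D21 and 1 and 0 at D0. ERBB2, listed with them as low in the line, had 88 UMIs (9.44 CPM) at D21 and 134 (12.15 CPM) at D0. The 10 immune and blood markers summed to 3.22 CPM at D21 and 2.27 at D0, with CD3E, MS4A1, NKG7 and HBB at 0 UMIs in both libraries, and the 8 fibroblast markers summed to 4.08 and 4.80 CPM, with COL3A1 at 0. Of the 8 endothelial markers, which summed to 98.6 CPM at D21 and 139 at D0, ESAM and EGFL7 made up most, and VWF had 0 UMIs at D21 and 3 at D0. By these markers the barcodes held cells of the line. Of the 21 cell barcodes found in both libraries, none was a both-programme cell. The mitochondrial limit of 20% removed 37 barcodes at D21 and 11 at D0, of which 1 and 0 met both gates.

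Genes that no gate used and that differed between the classes placed these cells between them. Genes at least 2-fold apart between AGR2-only and SAA-only cells, of at least 20 CPM, numbered 429 at D21 and 383 at D0, with the gate genes left out. Both-programme cells lay between the classes for 427 of the 429 and for 378 of the 383. Because other genes are tied to the gate genes, this is a description of the cells selected. Over all genes of at least 20 CPM, 4402 of 6912 (63.7%) at D21 and 2700 of 7159 (37.7%) at D0 lay between the classes. These include genes with near equal levels in the classes, where the range between them is narrow. The count of genes outside both classes was read over all genes of at least 20 CPM. At D21, 0 of 6912 genes (0%) were 1.5-fold above both classes and 0 (0%) were 1.5-fold below both. At D0, 0 of 7159 (0%) were above both and 14 (0.196%) below both, and no gene was outside on the same side in both libraries.

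The both-programme profile was set beside the plain mean of the classes and beside each class. This comparison was chosen after the values had been seen. Of 1794 genes of at least 100 CPM at D21, 99.4% were within 1.25-fold of the plain mean of the AGR2-only and SAA-only levels, 83.9% within 1.25-fold of the AGR2-only level and 80.8% within 1.25-fold of the SAA-only level. Of the 316 of them that were 1.5-fold apart between the classes, the shares were 98.4%, 31.0% and 19.3%. At D0, 88.3% of 1866 genes were within 1.25-fold of the mean, 75.8% of the AGR2-only level and 72.7% of the SAA-only level. The 264 genes 1.5-fold apart at D0 gave 82.95%, 32.6% and 26.1%. The median distance from the mean was 0.08 log2 units at D21 and 0.16 at D0. Among cells with no more UMIs than the median single-programme cell, the genes 1.5-fold apart that lay within 1.25-fold of the mean were 78.7% of 403 at D21 and 55.5% of 431 at D0, against 47.1% (D21) and 46.9% (D0) for the AGR2-only level and 14.1% (D21) and 18.8% (D0) for the SAA-only level. Among cells at or over the lower quartile of the both-programme UMIs, 98.2% of 1821 genes at D21 were within 1.25-fold of the mean, 86.4% of the AGR2-only and 81.2% of the SAA-only level. At D0 the shares of 1886 genes were 85.9%, 83.6% and 70.2%, and the median distance was smaller from the AGR2-only level (0.15 log2 units) than from the mean (0.17). For the genes 1.5-fold apart in these deeper cells, the shares were 94.35%, 30% and 21.7% of 230 at D21. At D0 they were 73.3%, 47.2% and 26.1% of 176. The median distance of these D0 genes was smaller from the mean (0.21 log2 units) than from the AGR2-only level (0.34). These deeper cells were not equal in depth. At D21 the medians were 22486 UMIs in both-programme, 17372 in AGR2-only and 18388 in SAA-only cells, and at D0 54060, 39786 and 41448.

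**Figure D3:**
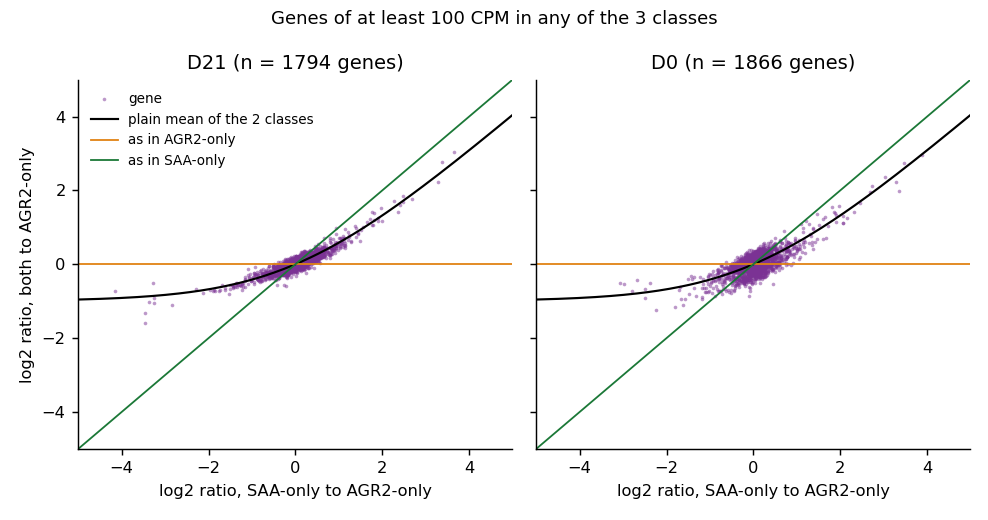
Genes of at least 100 CPM at D21 (left) and D0 (right), with the log2 ratio of SAA-only to AGR2-only cells on the x axis and the log2 ratio of both-programme to AGR2-only cells on the y axis. Points near the orange line had the AGR2-only level, those near the green line the SAA-only level, and those near the black curve the plain mean, within 1.25-fold for 99.4% of genes at D21 and 88.3% at D0.

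Against AGR2-only cells, the genes with the highest ratios were ones that were higher still in SAA-only cells. At D21, 215 of 6617 genes were at least 1.5-fold higher (3.25%) and 96 at least 1.5-fold lower (1.45%), and at D0 211 of 6824 were higher (3.09%) and 259 lower (3.8%). In the same direction in both libraries, 116 of 6404 genes tested in both were higher and 59 lower. FLG, which encodes filaggrin, had 37.6 CPM in both-programme cells at D21, against 2.96 in AGR2-only cells, a ratio of 12.7 (9.83 to 16.7), and at D0 38.3 against 3.56 CPM. TNFSF10, the death ligand TRAIL, had 234 against 34.04 CPM at D21 and 219 against 28.1 at D0. NNMT, a methyltransferase that spends S-adenosylmethionine on nicotinamide, had 148 against 17.9 CPM at D21 and 100.2 against 19.5 at D0. In SAA-only cells these genes were higher still, at 62.2, 355 and 224 CPM at D21 and 59.6, 412 and 160 CPM at D0. SLC1A3, a glutamate and aspartate transporter, and SGO1-AS1, an antisense transcript whose counting by strand no source used here states, had ratios of 5.39 and 6.56 at D21 and 4.60 and 3.44 at D0.

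The genes with the lowest ratios to AGR2-only cells were higher in AGR2-only than in SAA-only cells. CST1, a secreted cystatin, had 314 CPM in both-programme cells at D21, against 940 in AGR2-only cells (ratio 0.334, 0.322 to 0.347), and 337 against 559 CPM at D0 (ratio 0.603). CNTNAP3, a neurexin-family adhesion gene, had ratios of 0.475 at D21 and 0.405 at D0. The transcription factor FOXP2 had ratios of 0.520 and 0.316, and the noncoding HMGA2-AS1 and LINC02755 had 0.469 and 0.431 and 0.585 and 0.287. FOXP2 and LINC02755 at D0 were no higher in both-programme cells than in SAA-only cells (10.6 against 10.9 CPM and 8.79 against 10.0 CPM).

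Against SAA-only cells, the genes with the highest ratios were higher still in AGR2-only cells. At D21, 154 of 6774 genes were at least 1.5-fold higher (2.27%) and 124 lower (1.83%), and at D0 98 of 6979 were higher (1.4%) and 393 lower (5.63%). Of 6559 genes tested in both libraries, 69 were higher and 79 lower in both. At D0 the median gene was at -0.12 log2 units in this comparison, and scaling by the median ratio gave 168 higher and 200 lower. The same scaling gave 191 higher and 74 lower at D21, and 186 higher and 137 lower against AGR2-only cells at D21. PRSS2, a trypsinogen whose counts are uncertain because of close paralogs, had 288 CPM in both-programme cells at D21, against 26.8 in SAA-only cells (ratio 10.8, 10.2 to 11.4), and 63.7 against 29.9 CPM at D0 (ratio 2.13). The hair keratin gene KRT81 had 643 against 93.7 CPM at D21 and 264 against 55.8 at D0. The cystatins CST4 and CST2, near copies of CST1, had ratios of 5.08 and 4.89 at D21 and 5.90 and 5.49 at D0, and FAM155A, a subunit gene of a sodium leak channel, had 5.28 and 3.85.

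Of the 5 genes with the lowest ratios to SAA-only cells, 4 are described. ABCA1, which exports cholesterol to apolipoproteins, had 40.01 CPM in both-programme cells at D21, against 85.6 in SAA-only cells (ratio 0.468, 0.420 to 0.519), and 39.7 against 85.6 CPM at D0 (ratio 0.464). The phosphodiesterase gene PDE7B had ratios of 0.542 at D21 and 0.391 at D0, the basement membrane collagen COL4A1 0.532 and 0.405, and the nonmuscle myosin MYH10 0.455 and 0.499. All 4 were above their AGR2-only levels in both libraries: ABCA1 had 9.54 CPM in AGR2-only cells at D21 and 10.6 at D0.

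Antigen presentation and matrix genes were counted by list. Of the MHC class I list, 7 of 13 measured genes were at least 1.5-fold higher in both-programme than in AGR2-only cells at D21 (median 0.65 log2 units) and 8 of 13 at D0 (median 0.69), against 3.25% and 3.09% of all genes. HLA-B had 923 CPM in both-programme cells at D21, against 391.5 in AGR2-only and 1288.5 in SAA-only cells, and 992.5, against 372 and 1340.2, at D0. MHC class II genes had 3 of 4 higher than in AGR2-only cells at D21 (median 0.83) and 4 of 5 at D0 (median 0.63), and medians of 0.14 (D21) and -0.22 (D0) against SAA-only cells. CD44, the hyaluronan receptor, had 386 CPM at D21, against 236 in AGR2-only and 514 in SAA-only cells, and 342, against 199.9 and 504, at D0. Matrix genes went both ways: at D21, 5 of 15 were at least 1.5-fold higher and 0 lower than in AGR2-only cells (median -0.02), and 2 of 17 higher and 5 lower than in SAA-only cells (median -0.29). At D0 the counts were 5 of 15 higher and 2 lower (median -0.20), and 0 of 18 higher and 6 lower (median -0.22). Of all genes, 3.25% were higher and 1.45% lower than in AGR2-only cells at D21, and 3.09% and 3.8% at D0. Against SAA-only cells the shares of all genes were 2.27% higher and 1.83% lower at D21, and 1.4% and 5.63% at D0. FN1, which encodes fibronectin, had 167 CPM at D21, against 72.2 and 252, and 239, against 90.4 and 448, at D0. On the AGR2 side, 5 of 18 protease and inhibitor genes were at least 1.5-fold higher than in SAA-only cells at D21 (median 0.34) and 5 of 18 at D0 (median 0.44), beside 2.27% and 1.4% of all genes. Among them CST3, cystatin C, had 1166 CPM at D21, against 1875 in AGR2-only and 511 in SAA-only cells. S100A6, a calcium-binding protein gene, had 12752 CPM at D21, against 18782 and 7415.

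Growth and translation lists differed little between the classes. The 42 ribosomal protein genes had medians from -0.05 to 0.12 log2 units in the 4 comparisons with the single-programme classes, the 22 measured S phase genes from -0.18 to 0.08 and the G2 and M phase genes from -0.23 to 0.00. The sterol synthesis list stood between the classes at D21. Its median was 0.54 log2 units against AGR2-only cells (6 of 14 measured genes at least 1.5-fold higher, beside 3.25% of all genes). Against SAA-only cells it was -0.37 (1 of 16 lower, beside 1.83% of all genes). At D0 it was near 0 against both, at 0.11 and -0.04.

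The 14 genes below both classes at D0 are named after their values were seen. They included the mitochondrial genes MT-ATP8, with 259.6 CPM in both-programme cells against 469.7 in AGR2-only and 440.6 in SAA-only cells, and MT-ND6, with 89.7 against 149.5 and 142.3. At D21 the values were 163.7 against 247 and 213 for MT-ATP8 and 91.6 against 136 and 113.8 for MT-ND6. The repair helicase gene BRIP1 had 37.9 CPM at D0, against 59.8 and 60.4, and the centrosome gene CEP128 30.6, against 50.5 and 48.5. At D21 the both-programme values were 61.8 for BRIP1 and 56.1 for CEP128, against 63.2 and 58.4 in AGR2-only cells. Depth moved with these genes: the D0 both-programme median was 42292 UMIs, the highest of any class, and its part in these values was not tested. Among cells with at least 27608 UMIs at D0, the lower quartile of the both-programme cells, BRIP1 had 37.0 CPM, against 58.8 in AGR2-only and 66.5 in SAA-only cells. In the same cells MT-ATP8 had 240.7 CPM, against 343 and 388.6, and MT-ND6 85.8, against 128.3 and 145.3, so that neither was 1.5-fold below its AGR2-only level there. In that restricted set, chosen after seeing the data, 24 genes were below both classes and 0 above. Depth was still unequal there, with medians of 54060 UMIs in both-programme, 39786 in AGR2-only and 41448 in SAA-only cells.

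To place single cells, up to 50 genes a side were taken from the other library: those at least 2-fold higher in SAA-only than in AGR2-only cells, and the reverse, gate genes left out. The share of SAA-side UMIs among all UMIs of these genes gave each cell a place between 0 and 100%. The side genes of the libraries overlapped, with 31 of 50 shared on the SAA side and 30 of 50 on the AGR2 side. AGR2-only cells had a median place of 10.0% at D21 and 9.74% at D0, and SAA-only cells 92.0% and 87.7%. Both-programme cells had a median of 48.9% at D21 (46.2 to 52.1) and 45.6% at D0 (40.6 to 49.3), near the middle in both libraries. Of the summed medians of UMIs, SAA-only cells held 57.5% at D21 and 58.1% at D0. That is a share of all UMIs and the place a share of side-gene UMIs, so the values cannot be compared directly. Gene by gene, both-programme cells lay between the classes for 50 of 50 SAA-side and 49 of 50 AGR2-side genes at D21, and for 50 of 50 and 48 of 50 at D0. Measured from the AGR2-only level (0) to the SAA-only level (100), the median gene was at 52.5 on both sides at D21, and at 48.4 on the SAA side and 58.8 on the AGR2 side at D0.

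The cells were not all in the middle. Places spread over an SD of 24.4 points at D21 (interquartile range 29.03 to 66.3%) and 20.2 points at D0 (30.9 to 59.7%), against 13.7 (D21) and 11.98 (D0) in AGR2-only and 16.7 (D21) and 16.5 (D0) in SAA-only cells. At D21, 25 cells had a place under 10% and 24 a place of at least 90%. The central 90% of AGR2-only cells held 197 of the 467 at D21 (42.2%) and 98 of the 232 at D0 (42.2%), and the central 90% of SAA-only cells held 240 (51.4%) and 120 (51.7%). Depth moved with the place. The 106 D21 cells with no more UMIs than the median single-programme cell had a median place of 27.9% (22.7 to 46.2) and an SD of 30.9 points, against 50.7% (47.9 to 54.7) and 21.7 points in the 361 deeper ones. At D0 the 22 shallower cells had a median of 35.3% (18.8 to 46.8), against 46.8% (41.7 to 50.7) in the 210 deeper ones. These shallow cells rested on few counts, with a median of 40.5 side-gene UMIs at D21 and 65.5 at D0.

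The remaining comparison set both-programme cells at D21 beside those at D0. Genes of sterol and fatty acid synthesis were lower at D21. Of 6828 genes of at least 20 CPM in either library, 207 were at least 1.5-fold higher at D21 (3.03%) and 409 at least 1.5-fold lower (5.99%), with a median log2 ratio of 0.03 over all of them. Without the 6% of cells with the highest Scrublet scores, 444 were higher and 470 lower, and with no floor 3219 were higher and 2790 lower. Fewer cells of a subtype and less RNA per cell cannot be told apart from these summed counts.

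Sterol synthesis, the pathway that makes cholesterol under the control of SREBP transcription factors, had 17 of 20 genes at least 1.5-fold lower at D21 and 0 higher. The median was -0.85 log2 units, and of all genes 5.99% were lower and 3.03% higher. INSIG1, which holds the SREBP complex in the endoplasmic reticulum, had 37.2 CPM at D21 and 131 at D0 (ratio 0.285, 0.253 to 0.321). MVD, a decarboxylase of the mevalonate pathway, had 9.12 and 31.9 CPM (ratio 0.286), HSD17B7, a later sterol enzyme, 9.44 and 26.7 CPM (ratio 0.353), and FDPS, which makes farnesyl diphosphate, 164 and 366 CPM (ratio 0.447). Of the sterol sensing and lipoprotein uptake list, 7 of 10 measured members were at least 1.5-fold lower (median -0.80 log2 units).

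Fatty acid synthesis had 6 of 15 genes at least 1.5-fold lower and 0 higher (median -0.42), beside 5.99% lower and 3.03% higher of all genes. FASN, the fatty acid synthase, had 29.2 CPM at D21 and 86.8 at D0 (ratio 0.336), the desaturase SCD 76.7 and 199 (0.386), and the desaturase FADS2 18.02 and 56.2 (0.321). ACADVL, which oxidises long fatty acids in mitochondria, had 36.9 CPM at D21 and 97.7 at D0 (0.378). Glycolysis and hypoxia genes had 10 of 22 lower and 0 higher (median -0.54), among them LDHA with 1325 CPM at D21 and 2387 at D0. HES1, a repressor induced by Notch, had 40.7 CPM at D21 and 122 at D0, and AKR1C3, a steroid-reducing enzyme, 10.4 and 30.2. KIF20A, a mitotic kinesin, had 10.4 CPM at D21 and 29.3 at D0. Of 27 G2 and M phase genes, 2 were lower (median -0.13), near the 5.99% of all genes.

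Genes at least 1.5-fold higher at D21 included ones that differed between the single-programme classes. PRSS2 had 288 CPM at D21 and 63.7 at D0 (ratio 4.52, 4.16 to 4.92). TMEM163, a zinc transporter, and LRP1B, a large endocytic receptor, had 20.1 and 48.2 CPM at D21 and 7.43 and 18.2 at D0. These 3 genes were highest in AGR2-only cells in both libraries. AF121898.1, a noncoding transcript highest in SAA-only cells, had 41.6 CPM at D21 and 4.80 at D0 (ratio 8.66, 6.49 to 11.8). LRRC75A had 84.2 CPM at D21 and 31.4 at D0, CSNK2A2, a catalytic subunit of casein kinase 2, 32.5 and 12.4, and GPCPD1, a glycerophosphocholine hydrolase, 57.0 and 20.4. TMEM238 had 25.8 CPM at D21 and 6.62 at D0, LINC02755 27.7 and 8.79, and the histone gene HIST2H2AC 95.3 and 38.8. Among NF-κB and acute phase genes, 4 of 13 measured were at least 1.5-fold higher and 0 lower (median 0.26), beside 3.03% and 5.99% of all genes. Among them SOD2, the mitochondrial superoxide dismutase, had 95.3 CPM at D21 and 43.2 at D0 (ratio 2.20).

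No methionine cycle or vitamin B12 gene was at least 1.5-fold higher at D21. Of 11 measured, 3 were at least 1.5-fold lower (median -0.19), beside 5.99% of all genes, and AHCY, which splits S-adenosylhomocysteine, had 52.6 CPM at D21 and 99.8 at D0 (ratio 0.527, 0.473 to 0.586). CD320, the receptor for transcobalamin-bound B12, had 98.3 and 105 CPM. ATF4 target genes had a median of 0.05 with 1 of 13 lower, near the share of all genes, the gene being DDIT4, a stress-induced inhibitor of mTORC1, at 73.7 CPM at D21 and 159 at D0. Interferon genes outside the rule had 1 of 9 higher (median 0.27), beside 3.03% of all genes: IFI27 had 370 CPM at D21 and 188 at D0.

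The single-programme classes differed between D21 and D0 in the same lists, and their values stand beside those of the both-programme cells with no test of the difference. For sterol synthesis the medians were -0.85 log2 units in both-programme, -1.29 in AGR2-only and -0.71 in SAA-only cells, and for sterol sensing and uptake -0.80, -1.08 and -0.63. For fatty acid synthesis they were -0.42, -0.65 and -0.30, and for glycolysis and hypoxia -0.54, -0.46 and -0.51. INSIG1 gave ratios of 0.285, 0.178 and 0.402, and SCD 0.386, 0.223 and 0.466. The both-programme value was between the classes for each of the 3 lipid lists and outside them, by at most 0.03 log2 units, for glycolysis. It was further outside for other lists. For NF-κB and acute phase genes it was 0.26 (13 genes measured), against 0.01 (9) in AGR2-only and 0.09 (14) in SAA-only cells. SOD2 gave ratios of 2.20, 1.17 and 1.68. For mesenchymal transition genes it was 0.27 against -0.46 and -0.27, and for S100 and annexin genes -0.30 against -0.02 and -0.10. Over 9 other ways of processing, the NF-κB median ranged from -0.12 to 0.65. The mesenchymal transition median ranged from -0.41 to 0.32 and the S100 and annexin median from -0.33 to 0.10.

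**Figure D4:**
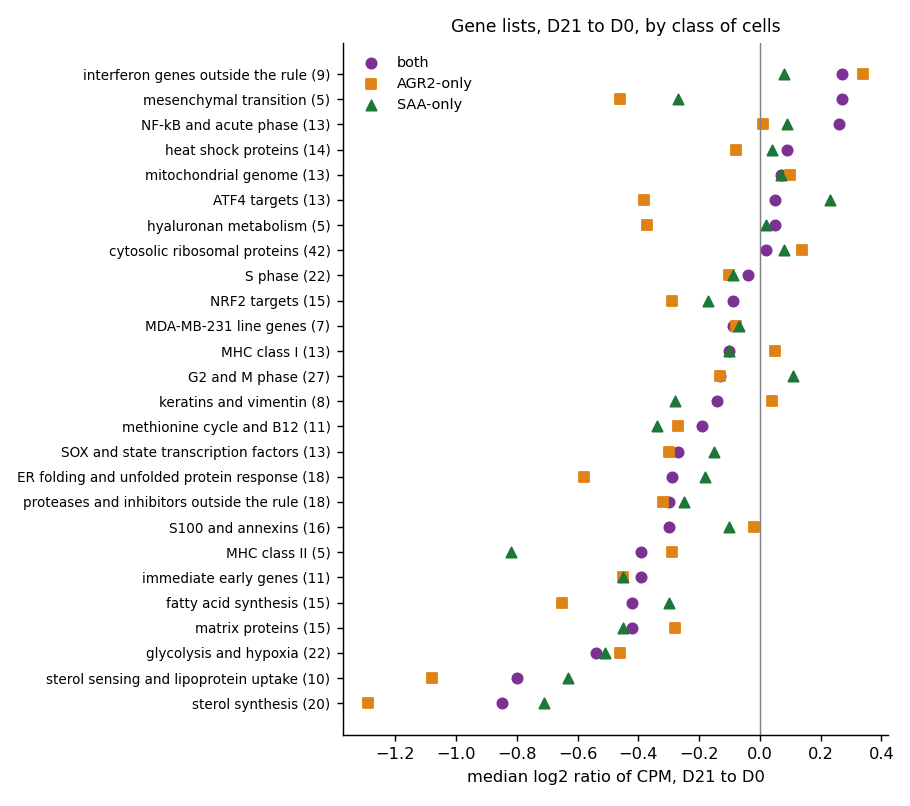
Median log2 ratio of CPM, D21 to D0 (x axis), over the genes of each list (y axis, with the number measured in both-programme cells), for both-programme cells (circles), AGR2-only cells (squares) and SAA-only cells (triangles). Sterol synthesis had the lowest median in both-programme and AGR2-only cells (-0.85 and -1.29, beside -0.71 in SAA-only cells), and interferon genes outside the rule were at 0.27, 0.34 and 0.08.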

How the data were processed

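Single-cell libraries of 1 D21 revertant and 1 D0 parental culture were analysed. The authors deposited raw UMI counts per gene and barcode, made with Cell Ranger 4 (file header) from 10x 3' v3.1 libraries. GRCh38 is the build named in the submitters' processing notes. No source used here states the annotation or strand setting. The matrices were not normalized and included empty droplets.

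Barcodes with at least 5422 UMIs (D21) or 9009 UMIs (D0), 500 genes and at most 20% mitochondrial UMIs were kept, which left 182839048 UMIs in 12487 cells and 183098116 UMIs in 7492 cells. Counts were summed per class and library and scaled to CPM. Genes of at least 20 CPM in either group were compared, and called at a ratio of 1.5, a count by size. The cell rule's genes were left out. Shares have exact binomial (Clopper-Pearson) and gene ratios exact conditional Poisson intervals, medians order-statistic ones, all at 95%. They cover counting error only. With 1 library per condition, no p-value was computed. Doublets were kept. Thinning drew UMIs without replacement. Scripts were checked on simulated counts with known ratios.

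Members, lists and rules were chosen with earlier results of these data known. Named genes were the 10 highest and 10 lowest D21 to D0 ratios, the 5 highest and 5 lowest past 1.5-fold in both libraries against each class, genes outside both classes in both libraries (none), and the 4 most abundant of each of 32 lists, 169 in all, all with a GENCODE 29 position. Other genes were named after their values were seen. Some named genes are not reported here. Alternatives changed the gates, limits, depth, doublets, free RNA, floor, scaling, cell weights and fold. Python 3.11.15, numpy 2.4.6, scipy 1.17.1, pandas 2.3.3 and scanpy 1.11.5 were used.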

Additional observations from a re-analysis of the deposited data

How the results depend on the processing

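No paired analysis was possible because each condition was 1 library. The share of both-programme cells was 3.08% (D21) and 2.51% (D0) without the 6% of cells with the highest Scrublet scores. It was 8.26% and 5.98% at a gate of 1 per 10,000, and 1.27% and 1.00% at 4 per 10,000. At 2 times the UMI minimum it was 5.24% and 5.26%, and thinned to 5422 UMIs 2.64% and 2.002%. With the full free RNA level subtracted, which acts as a higher gate, it was 0.432% and 0.240%. At D21 it was 4.72% without the MMP1 limit and 5.69% thinned to 9009 UMIs. D21 minus D0 was 0.643 points, and 2.28 at the lower gate, 1.54 without the MMP1 limit, 2.24 thinned to 9009 UMIs and -0.0227 at 2 times the UMI minimum, where the direction turned; the cause was not tested. At 5422 UMIs the gate needs 2 UMIs, which makes it stricter. The MMP1 limit, a count of UMIs, is looser after thinning and stricter in deeper cells.

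Without high Scrublet scores, the UMI ratio to AGR2-only cells went from 1.97 to 1.83 at D21 and from 2.52 to 2.82 at D0. It was 1.67 (D21) at the lower gate and 2.14 (D0) at the higher one. The ratio to SAA-only cells went from 1.46 to 1.36 at D21 and from 1.82 to 2.03 at D0 without high Scrublet scores. It was 1.23 (D21) at the lower gate, and 1.36 (D21) and 1.53 (D0) at the higher one. The median place was 46.0% (D21) without high Scrublet scores and 31.3% (D0) at the lower gate.

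Genes past 1.5-fold, both directions together, numbered 616 of 6828 tested for D21 to D0. With floors of 5 CPM, 50 CPM and none they numbered 1501 of 10953, 249 of 3502 and 6009 of 19580. Among cells at or under the median UMIs of single-programme cells they numbered 2244 of 7059, and at 2-fold 91 of 6828. Against AGR2-only cells at D21 (311 of 6617) these were 794 of 10845, 135 of 3383, 5502 of 20646, 652 of 6615 and 81. At D0 (470 of 6824) they were 1210 of 10969, 205 of 3475, 6514 of 21017, 1710 of 6966 and 97. Against SAA-only cells at D21 (278 of 6774) they were 703 of 10896, 138 of 3530, 5657 of 21225, 1250 of 6931 and 59. At D0 (491 of 6979) they were 1075 of 10948, 228 of 3653, 5936 of 20681, 2406 of 7260 and 50. Without high Scrublet scores they were 425 of 6788 against SAA-only cells at D21, and 861 of 6783 (AGR2-only) and 1121 of 6960 (SAA-only) at D0. The higher gate gave 625 of 6804 against SAA-only cells at D21. An alternative chosen after seeing the data, cells at or over the lower quartile of the both-programme UMIs, gave 299 of 6816 against AGR2-only cells at D0.

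Genes outside both classes at D21 (0 of 6912) became 15 of 11066 at 5 CPM and 2061 of 20537 with no floor. They became 2 of 6939 without high Scrublet scores and 150 of 7055 in the shallow cells. The higher gate gave 15 of 6949 and the mean of per-cell CPM 1 of 6917. Genes outside both classes at D0 (14 of 7159) became 106 of 11201 at 5 CPM, 5 of 3773 at 50 CPM and 2520 of 20537 with no floor. They became 9 of 7159 with median-ratio scaling, 8 of 7150 with per-cell means and 168 of 7151 without high Scrublet scores. The shallow cells gave 992 of 7448, the higher gate 38 of 7185, 2-fold 0 of 7159 and the deep cells 24 of 7146. Lower floors and shallow cells rest on fewer counts by construction. Of the values under an alternative other than list medians, 53 stayed within their limit. Of 270 list medians under an alternative, 222 moved by at most 0.1 log2 units and 48 by more. The only medians past 1.5-fold, those of sterol synthesis and of sterol sensing and uptake, kept their sign. Several smaller medians turned theirs, among them MHC class I (-0.13 to 0.40), MHC class II (-0.43 to 0.08) and G2 and M phase genes (-0.32 to 0.10). Counts limit the D0 group most, with 232 cells and 22 shallow ones, and culture variation was not measured.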

Other observations

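Cells with both programmes and cells with neither had different spreads of the place measure. Both-programme cells had interquartile ranges of 29.03 to 66.3% at D21 and 30.9 to 59.7% at D0, against 12 to 88% at D21 and 8.45 to 68.8% at D0 in the 3140 (D21) and 2688 (D0) cells with neither, whose median places were 44.3% and 19.5%. The cells with neither held a median of 10974 UMIs at D21 and 18424 at D0. MT2A, a metallothionein gene whose product binds zinc and copper, had 3490 CPM in both-programme cells at D21, against 4596 in AGR2-only and 2819 in SAA-only cells, and 3748, against 4909 and 2207, at D0. FTL, the ferritin light chain gene, had 6952 CPM at D21, against 5076 and 7766, and 4943, against 3985 and 4878, at D0.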
